A study of Rattus norvegicus with 9 samples.

Results

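ASRN6SM is a class of microarray probes that share the start of their name. The members were all probes for transcripts whose name begins with ASRN6SM. There were 2505 of them among 41186 probes for transcripts, with 1 spot each per array. Their names differ only in a number, and the second name that the scanner output gives each of them repeats the first. None could be matched to a gene symbol, and the files do not state the RNA type of the class or the sequence of its probes. It is therefore described by its probe name, by its signal and by how it differed from the other probe classes, of which ASRN6AP1B (28015 probes), ASRNV (5519), ASRN6AP1A (4138) and uc. (959) were the large ones.

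N6-methyladenosine (m6A) is an internal RNA modification that is placed by a methyltransferase complex containing METTL3 and METTL14 and removed by the demethylases FTO and ALKBH5. Proteins of the YTH family bind methylated RNA and influence its splicing, translation and decay. An anti-m6A antibody divides RNA into an immunoprecipitated fraction (IP), which is enriched for methylated molecules, and a supernatant (Sup), which holds what the antibody did not bind. The log2(IP/Sup) of a probe is a relative measure of methylation: a low value means less IP signal for its Sup signal than other probes of the same array had.

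The arrays carried RNA from the cortex of the ischemic side of male Sprague Dawley rats that were 8 weeks old, with 1 array per rat and 3 rats per group. Control rats, which the labels call normal, had the surgery of the model rats without the plug, and their labels give no day. Model rats had cerebral ischemia-reperfusion injury by a wire plug that was later withdrawn, and their cortex was taken on day 7. BHD rats were model rats that were given Buyang Huanwu Decoction, a herbal preparation, also with cortex taken on day 7. The cortex of an injured side mixes tissue of unequal damage and cells of several types, and in such bulk samples fewer cells of a type and less RNA per cell cannot be told apart. On every array the IP was labelled with Cy5 and the Sup of the same rat with Cy3, with no dye swap. A dye bias of a probe therefore remains in its log2(IP/Sup) but cancels when groups are compared. Slides were inferred from the scan times alone: a gap of over 60 minutes was taken to start a new slide. What is called a slide here is therefore a group of scan times. By this rule the 3 control arrays and model replicate 1 were on slide 1. Model replicates 2 and 3 and BHD replicates 1 and 2 were on slide 2, and BHD replicate 3 was alone on slide 3. Of 5 neuronal marker genes, Map2 and Dlg4 had a probe that could be named, and both exceeded background in IP and Sup on each of the 9 arrays. No marker of astrocytes, microglia, oligodendrocytes, endothelium or blood could be matched, so the cell makeup of the samples was not tested.

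About 7 in 10 ASRN6SM probes were detected in the IP fraction of the control cortex and fewer in the supernatant. A probe was counted as detected where the scanner software called its signal well above background. In the IP channel 66.2%, 68.8% and 73.5% of the 2505 probes were detected on the control arrays, 69.5% ± 3.7 (SD, n = 3). The shares were 80.6%, 71.3% and 73.0% on the model arrays and 76.0%, 79.1% and 70.9% on the BHD arrays. The highest control share exceeded the lowest of the model and of the BHD group, so the groups overlapped. In the Sup channel the shares were 61.1%, 55.8% and 68.9% in control, 62.0% ± 6.6 (SD, n = 3), then 71.8%, 66.1% and 68.8% in model and 73.8%, 74.8% and 66.3% in BHD. The groups overlapped here as well. The class moved with the array rather than apart from it: over all other probes the IP shares were 71.2%, 73.5% and 77.2% in control, 82.8%, 75.6% and 76.8% in model and 78.0%, 80.6% and 74.0% in BHD.

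**Figure D1:**
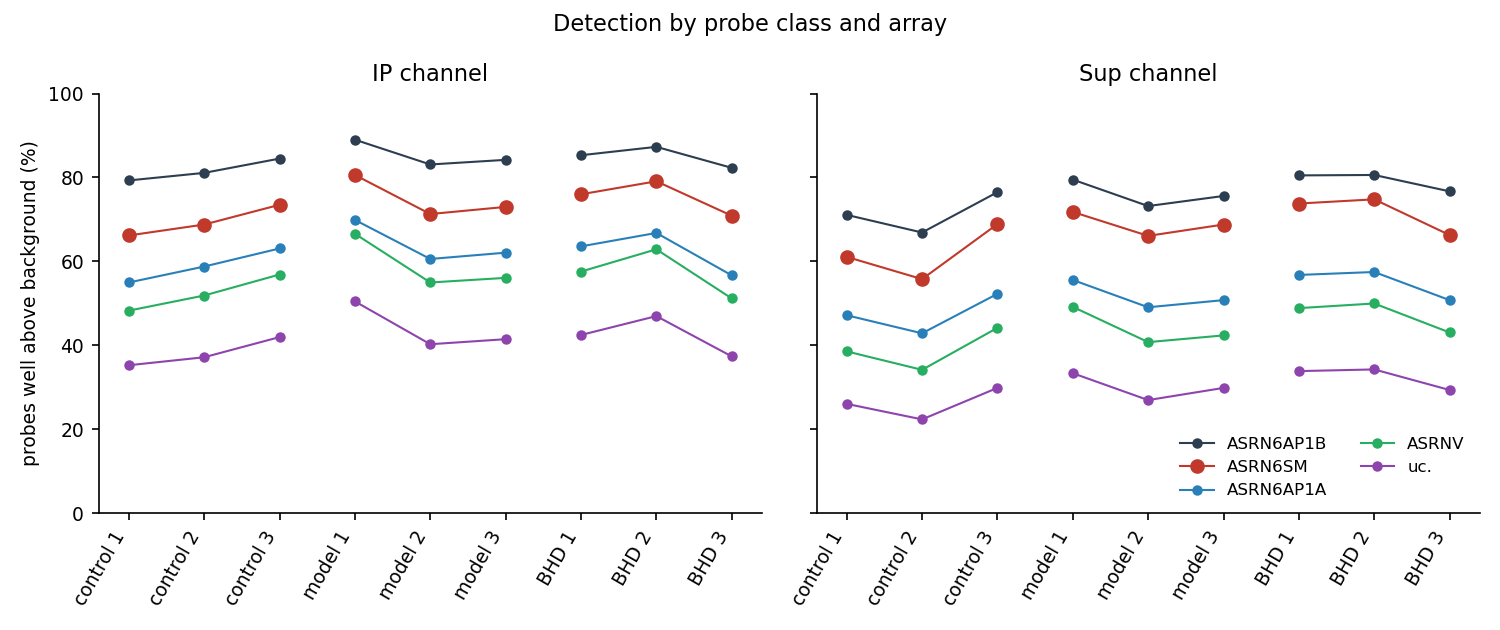
Share of the probes of a class that were well above background (y axis, percent of the class) on each of the 9 arrays (x axis), with the IP channel on the left and the Sup channel on the right. Lines join the arrays of a group for reading only. ASRN6SM (red) lay below ASRN6AP1B and above ASRN6AP1A, ASRNV and uc. on every array, between 66.2% and 80.6% in IP and between 55.8% and 74.8% in Sup.

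Among the 5 large classes ASRN6SM was second in detection on every array and in both channels. ASRN6AP1B stood above it, with 79.3% to 89.0% in IP, and ASRN6AP1A below it, with 55.0% to 69.9%. Detection in both channels on all 9 arrays was found for 1241 ASRN6SM probes, 49.5% of the class, and 356 probes, 14.2%, were detected on no array in either channel. The class differed from the others in the share of probes detected in Sup alone, though detection in IP alone was the more frequent on every array. On the control arrays 9.4%, 15.4% and 8.1% of its probes were detected in IP only, against 9.8%, 15.4% and 9.8% of all other probes. On the control arrays 4.3%, 2.4% and 3.6% of its probes were detected in the Sup channel only, against 1.4%, 0.5% and 0.8% of all other probes. Over the 9 arrays the Sup-only share ran from 1.9% to 4.3% in ASRN6SM and from 0.4% to 1.9% in all other probes, and it was the higher of the 2 on each array. Of the probes seen in Sup on all 9 arrays and in IP on none, 7 belonged to ASRN6SM and 5 to all other classes together, although the class holds 2505 of the 41186 probes. These were counts of the scanner's flags, without a test.

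Few probes switched between detected on every array of a group and on none of another. In IP, 13 ASRN6SM probes (0.519%) were detected on all 3 model arrays and on no control array, against 0.326% of all other probes. In Sup there were 20 (0.798%), against 0.308%. The reverse was seen in 0 members in either channel, and over all other probes in 0 in IP and 1 in Sup, so the direction was shared by the other classes. Between BHD and model, 3 members in IP (0.12%, all other probes 0.0517%) and 16 in Sup (0.639%, all other probes 0.473%) were detected on all 3 BHD arrays and on no model array. The reverse was seen in 0 members, against 38 of all other probes in IP and 12 in Sup. These are counts of flags without a test, and the detected share of all other probes also differed between the arrays.

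In the control cortex the ASRN6SM probes leaned toward the supernatant relative to the other probes. Over the 1917 members that entered the comparison of model and control, the median log2(IP/Sup) on the control arrays was −0.06, −0.11 and −0.11, a mean of −0.09 ± 0.03 (SD, n = 3). Over all other probes tested it was 0.02, 0.03 and 0.03. The difference was −0.12 ± 0.03, with the class lower on 3 of 3 control arrays. The model arrays gave −0.12, −0.04 and −0.16 for the class and the BHD arrays −0.08, −0.09 and −0.05, while all other probes stayed at 0.02 or 0.03 on each of these arrays. The class median was thus below that of the other probes on all 9 arrays. The zero of this scale is set within each array: without normalization within arrays the class median was 0.19, and the difference from all other probes was then −0.17.

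The class had a larger share of probes with a very low ratio than the other classes named here, and a smaller share with a high one. This was seen among the 1275 ASRN6SM probes that were detected in both channels on all 3 control arrays and had a control mean. Of these, 238 probes (18.7%) had a mean log2(IP/Sup) below −1. In ASRN6AP1B the share was 10.9%, in ASRNV 9.7%, in ASRN6AP1A 8.5% and in uc. 5.5%. Below −2 were 106 members (8.3%), against 2.8% of all other probes. Above 1 were 19 members (1.5%), against 12.2% in ASRN6AP1B, 12.1% in uc. and 5.7% in both ASRN6AP1A and ASRNV. The class median was −0.18, with 5% of the members below −2.45 and 5% above 0.55.

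**Figure D2:**
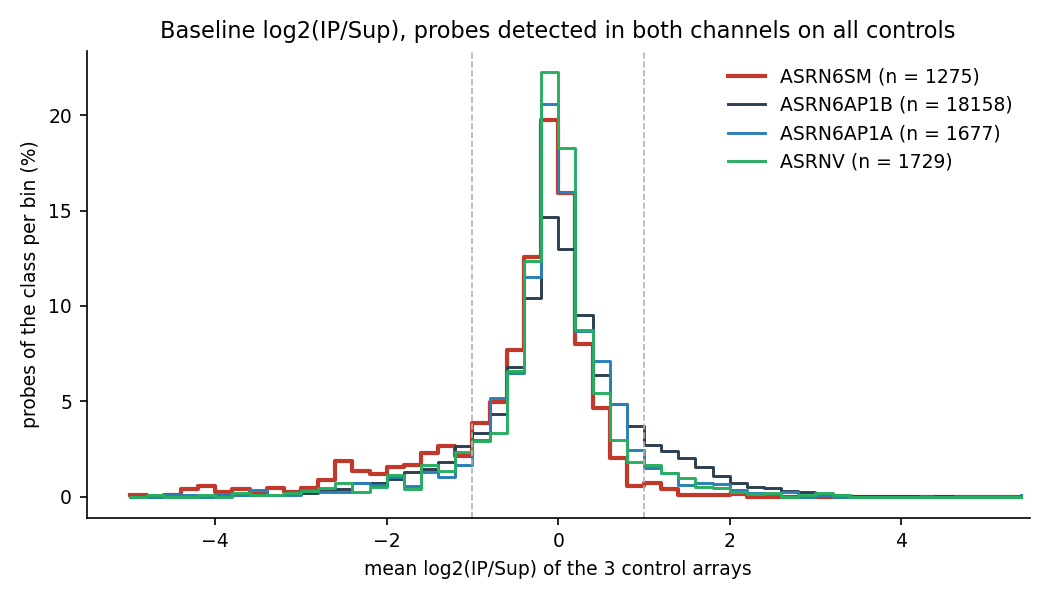
Distribution of the mean log2(IP/Sup) of the 3 control arrays (x axis) over probes detected in both channels on all of them, as the percentage of each class in bins of 0.2 (y axis). Dashed lines mark −1 and 1. ASRN6SM (red, n = 1275) has more probes on the left, 18.7% below −1, and fewer on the right, 1.5% above 1, than ASRN6AP1B, ASRN6AP1A and ASRNV.

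The same direction was found on each control array, and in every normalization tried, though the shares moved. Relative to the median of all other probes of the array, 17.1%, 18.4% and 20.2% of the ASRN6SM probes lay more than 1 below, 18.6% ± 1.5 (SD, n = 3), against 10.4% ± 0.4 of all other probes. More than 1 above lay 0.9%, 1.1% and 1.6% of the class, against 12.3%, 10.6% and 11.7% of the others. The arrays of the 2 sets did not overlap in either direction. With the signals processed by the scanner software in place of normexp and loess, 29.5% ± 2.5 of the class were more than 1 below, and at most 17.3% of the others on any control array. The shares above were then 4.0% ± 0.6 and 17.2% ± 1.3.

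Members at the extremes of the ratio kept their side of 0 on the other arrays, those near 0 less so. Of the 106 members with a control mean below −2, all 106 were below 0 on each of the 6 model and BHD arrays, and 98 were below −1 on each of them. Of 132 members between −2 and −1 in control, all 132 were below 0 on those 6 arrays and 43 were below −1. Of 621 members between −1 and 0, 383 stayed below 0 on all 6, and of 397 between 0 and 1, 161 stayed above 0. All 19 members above 1 stayed above 0. Across 1209 members measured on every array, log2(IP/Sup) correlated between control arrays with r from 0.937 to 0.975, and between control and model arrays with r from 0.901 to 0.985. These correlations are across probes of the same arrays, which are not independent, and the ranges overlap. The median SD within groups was 0.16 for log2(IP/Sup) in the class and 0.18 in all other probes, over probes detected in both channels on all arrays.

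ASRN6SM110002474911 had the lowest control mean of log2(IP/Sup), −4.92 ± 0.22 (SD, n = 3), with log2 Sup signals of 10.68, 11.22 and 11.23 in control against log2 IP signals of at most 6.24. Its ratio was −5.34, −4.42 and −4.83 on the model arrays and −5.10, −4.77 and −3.97 on the BHD arrays, so the groups overlapped. ASRN6SM110002734811 followed with −4.51 ± 0.19 in control and with values from −5.09 to −3.46 on the other 6 arrays. The IP signals of both probes were dim, from 5.85 to 6.66 over the 9 arrays, so the size of these low ratios is uncertain. At the other end, ASRN6SM110008469811 had 1.93, 2.03 and 2.39 in control, 1.66, 2.01 and 1.57 in model and 1.66, 1.69 and 1.02 in BHD. This was an IP signal of 12.31, 11.96 and 12.05 over a Sup signal of 10.38, 9.92 and 9.65 in control. ASRN6SM110004155511 was next, at 2.23, 1.98 and 1.86 in control. All 4 probes exceeded background in IP and in Sup on each of the 9 arrays, and none of the 4 met the thresholds in a comparison of groups.

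**Figure D3:**
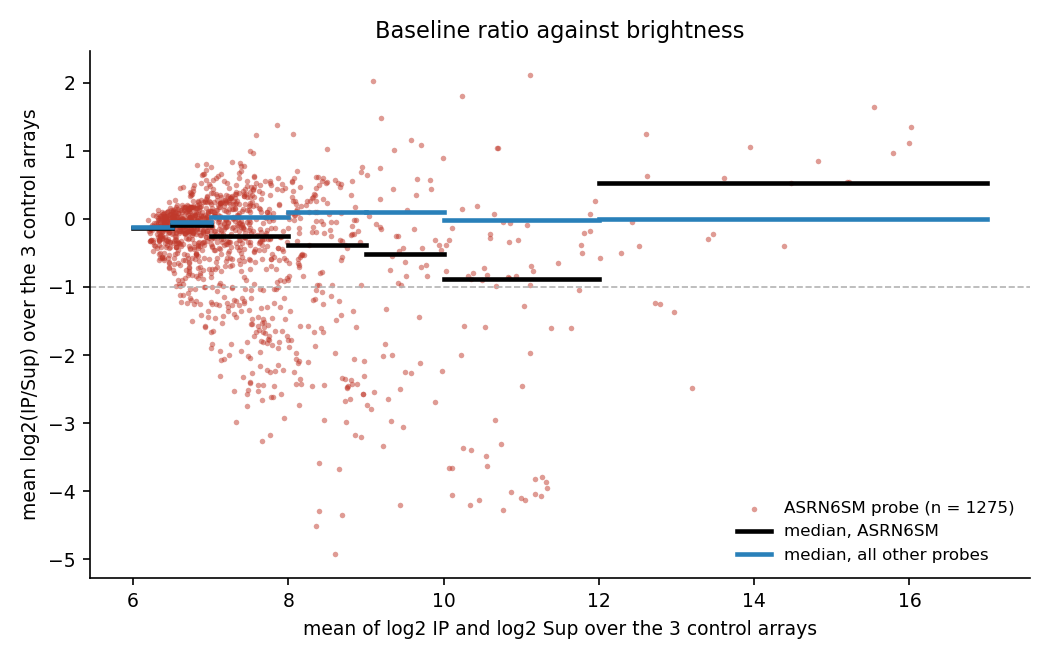
Mean log2(IP/Sup) over the 3 control arrays (y axis) against brightness, the mean of log2 IP and log2 Sup over the same arrays before quantile normalization (x axis), for 1275 ASRN6SM probes (points). Horizontal bars give the median of each brightness band for ASRN6SM (black) and for all other probes (blue). The ASRN6SM median is −0.14 in the dimmest band and −0.88 between 10 and 12, where the others are at −0.01, and it is 0.53 above 12.

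The difference from the other probes was widest among probes of middle and high brightness. In the dimmest band, with a mean log2 signal up to 6.5, the median log2(IP/Sup) of the class was −0.14 and that of all other probes −0.12. Between 7 and 8 it was −0.25 against 0.03, and 24.4% of 442 members were below −1 against 7.5% of the others. Between 8 and 9, 36.2% of 160 members were below −1 against 12.9%. Between 10 and 12 the median was −0.88 against −0.01, and 44.1% of 68 members were below −1 against 21.3%. The share below −1 in that band was 34.3% in ASRNV, 27.3% in uc., 20.9% in ASRN6AP1B and 20.4% in ASRN6AP1A. Above 12 the order turned, with a median of 0.53 over 23 members and of 0.00 over all other probes. There 17.4% of the members were below −1, against 25.6% of all other probes. The medians of that band were 0.36 in ASRNV, 0.27 in ASRN6AP1A, −0.03 in ASRN6AP1B and −0.31 in uc. The class had a median brightness of 7.19 against 7.83 for all other probes, and from 7 to 12 its median ratio was the lower one in each band.

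A small set of bright probes had very low ratios. There were 20 members with a brightness above 10 and a control mean below −3, limits that were chosen after the values were seen. In 15 of them the ratio was not called between BHD and model. Their median Sup signal was 12.99, 12.85 and 12.89 in control, 12.78, 12.98 and 13.15 in model and 12.65, 13.06 and 13.22 in BHD. Each of these 15 probes varied by 0.51 to 0.98 in log2(IP/Sup) over the 9 arrays. The other 5 were called higher in BHD than in model, where all probes had 1.27% higher. Other probes with a control mean up to −2, of any brightness, had 41 higher and 16 lower of 589. The set was split by this call, so BHD above model in the 5 is fixed by the choice. A narrow range in the other 15 is favoured by it. The median log2(IP/Sup) of the 5 was −2.98, −3.70 and −3.78 in control, −4.04, −4.13 and −3.56 in model and −3.31, −3.04 and −2.39 in BHD, with control replicate 1 within the BHD range. Whether probes of such a set share a target is not given, and they are not independent measurements if they do.

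The comparison of model and control asked whether m6A and transcript signals of the class differed after ischemia-reperfusion. Hardly any ASRN6SM probe met the thresholds, a fold change of at least 1.5 with an unadjusted p under 0.05 by limma in the fit over every probe. Of 1917 members tested, the log2(IP/Sup) of 1 was called, 0.0522%, where 0.616% of the 31640 probes of all classes were called. All probes had 0.228% higher and 0.389% lower. The IP signal of 0 members was called, where 1.4% of all probes were (0.692% higher, 0.705% lower). The Sup signal of 1 was called, where 1.24% were (0.86% higher, 0.379% lower). At an unadjusted p under 0.05 by limma there were 51 members for log2(IP/Sup) (2.66%, all probes 3.81%), 50 for IP (2.61%, all probes 6.29%) and 48 for Sup (2.5%, all probes 7.03%). The lowest Benjamini-Hochberg adjusted p of a member was 0.765 for log2(IP/Sup), 0.647 for IP and 0.702 for Sup by limma.

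The median change in log2(IP/Sup) was −0.01, with 90% of the members between −0.26 and 0.26, where all probes had 90% between −0.41 and 0.31. In IP 90% of the members lay between −0.22 and 0.18, and in Sup between −0.23 and 0.19. The model and control values of log2(IP/Sup) did not overlap in 160 of the 1892 members measured on all 6 arrays, 8.46%, against 8.3% of all probes. Of these 160, 118 were lower and 42 higher in model, while all probes had 4.02% lower and 4.28% higher. At an unadjusted p under 0.05, 46 of 51 members and 681 of 1206 of all probes were lower in model. Without overlap in IP were 205 members, 10.8% against 11.3% of all probes (4.6% higher, 6.72% lower), 65 higher and 140 lower. In Sup there were 149, 7.88% against 12.9% of all probes (4.15% higher, 8.76% lower), 42 higher and 107 lower.

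The single called ratio belonged to ASRN6SM110000298711, named here because it was the only one, after its value was seen. Its log2(IP/Sup) was −1.55, −1.26 and −1.51 in control and −1.16, −0.30 and −0.84 in model, without overlap. Its IP signal was not well above background on any of the 9 arrays, so the ratio is only a bound and no fold is given. The call was lost without control replicate 1 (0.62) or 3 (0.64) or model replicate 2 (0.44), as differences between these bounds that were 0.67 over all 6 arrays. With slide as a block it was lost too, at 0.28. The Sup signal, well above background throughout, was 7.32, 7.13 and 7.33 in control and 6.98, 6.34 and 6.80 in model. The single called Sup signal was that of ASRN6SM110007691211, with 7.35, 7.32 and 7.66 in control and 7.28, 6.27 and 6.80 in model. It was lower in model by −0.66 ± 0.25 (SE, limma adjusted p = 0.703), and model replicate 1 lay beside the controls. Model replicate 1 was also the array that shared the slide of the controls, and with slide as a block the change of this probe was −0.17. Its call was also lost without control replicate 1 (−0.71), 2 (−0.72) or 3 (−0.55) and without model replicate 2 (−0.40) or 3 (−0.67), with median centring (−0.53) and without normalization within arrays (−0.25).

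Single arrays and the source of the values moved these counts. For log2(IP/Sup) the number of members called was 32 without model replicate 1, 1.68% where 5.52% of all probes were called. It was 6, 3 and 0 without control replicates 2, 3 and 1 (all probes 1.17%, 1.31% and 0.177%), and 2 without model replicate 2 (all probes 0.381%). For IP it was 7 without model replicate 3, 3 without model replicate 1 and 1 without control replicate 2 (all probes 0.943%, 2.01% and 1.53%). For Sup it was 14 without model replicate 1, 9 without control replicate 3 and 2 without control replicate 1 or 2 (all probes 2.11%, 2.66%, 0.783% and 1.27%). With the replicate number as a block, a pairing that rests on the arrays' deviations, 4 members were called for log2(IP/Sup), 0 for IP and 2 for Sup (all probes 2.55%, 2.04% and 1.56%). Within slide 1, where the lone model array was assumed to vary like the controls, 3, 26 and 17 were called (all probes 0.337%, 1.44% and 1.18%). In the deposited log2 signals, 401 of 1869 members were called for log2(IP/Sup). These were 6 higher and 395 lower in model, 21.5% where 14.5% of all probes were called. There the median of all probes was shifted by −0.29 and that of the class by −0.43.

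The comparison of BHD and model rats, made in a fit of all 9 arrays, held more calls. Whether the class had a smaller share than all probes for the ratio depended on the setting. Its share was larger with the processed signals (16.1% against 10.4%) and the deposited ones (14.8% against 8.72%). The same held without normalization within arrays (6.7% against 6.48%) and without model replicate 2 (2.99% against 1.44%). It was larger in no other setting tried. In the main processing 28 of 2016 members tested were called for log2(IP/Sup). This was 1.39%, where 2.62% of 33132 probes of all classes were called, again a smaller share. The direction was uneven. There were 25 members higher in BHD and 3 lower, whereas all probes had 1.27% higher and 1.35% lower. None passed an adjusted p of 0.05 by limma, the lowest being 0.431, and 174 members (8.63%, all probes 10.8%) had an unadjusted p under 0.05, 130 of them higher and 44 lower in BHD. Groups did not overlap in 356 of 2002 members, 17.8% against 16.5% of all probes, with 257 higher and 99 lower in BHD (all probes 6.46% and 10.1%). The median change of the class was 0.05 and that of all probes 0.00, with 63.7% of the members and 50.9% of all probes above 0. With slide as a block the medians were 0.01 and −0.01, and 23 members were called higher and 12 lower, where 7.45% of all probes were called.

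The 25 higher members were mostly those that lay low at baseline. Their control mean of log2(IP/Sup) was below −1 in 17 and below 0 in 24, and all 25 were detected in both channels on all 9 arrays. Among members with a control mean up to −2, 10 of 113 were called higher and 0 lower, with a median change of 0.25. The other probes in that range had 41 higher and 16 lower of 589, with a median change of 0.09. Between 0 and 0.5, 0 of 671 members were called, and the other probes in that range had few calls too, 54 higher and 72 lower of 11100. By brightness, 12 of the 25 lay between 10 and 12, in 67 members, while the other probes of that band had 74 higher and 161 lower of 2794. The control arrays enter neither mean of this contrast, but they share the estimate of the spread.

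ASRN6SM110005900011 had the largest change of the ratio. Its log2(IP/Sup) was −2.87, −3.16 and −2.78 in model and −2.18, −1.56 and −1.01 in BHD, without overlap, a difference of 1.35 ± 0.37 (SE, limma adjusted p = 0.431). The difference was larger in Sup than in IP: the Sup signal was 12.51, 12.70 and 12.54 in model and 11.95, 10.91 and 9.69 in BHD, while IP was 9.64, 9.54 and 9.75 against 9.77, 9.35 and 8.68. The control arrays read −1.67, −2.66 and −3.04, so that control replicate 1 lay among the BHD values. ASRN6SM110002103111 followed with −3.89, −3.59 and −3.45 in model, −3.10, −2.42 and −1.59 in BHD and −2.64, −3.60 and −3.78 in control, a difference of 1.27 ± 0.39 (SE, limma adjusted p = 0.431). With slide as a block the first was 1.10 and still called, and the second 0.76 and no longer called, though within slide 2 it was. In both, control replicate 1 was set apart from the other 2 control arrays by more than those differed.

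**Figure D4:**
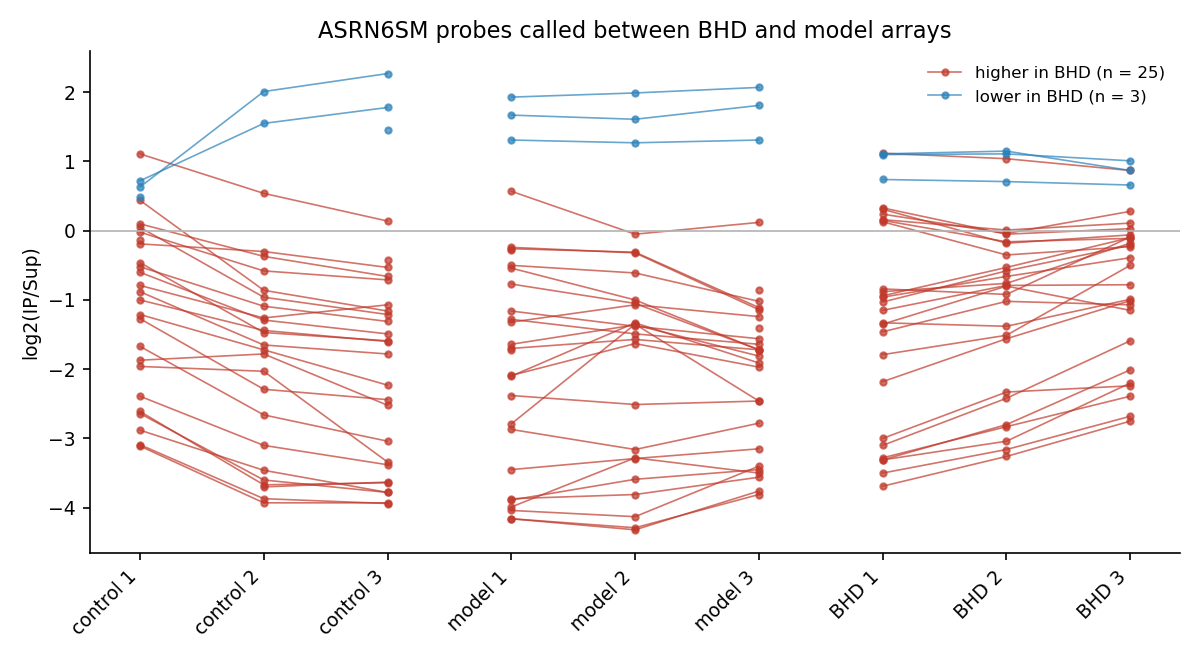
Log2(IP/Sup) (y axis) of the 28 ASRN6SM probes called between BHD and model on each of the 9 arrays (x axis). Each line joins the arrays of one group for 1 probe, red for the 25 called higher in BHD and blue for the 3 called lower. Most red probes lie below 0, and control replicate 1 lies above the other controls in 23 of 24 measured red probes and below them in the 3 blue ones.

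The 25 probes were called because BHD exceeded model in these same values, so that order is fixed by the choice and is not a further result. The median log2(IP/Sup) was −1.72, −1.49 and −1.81 in model and −1.15, −0.80 and −0.50 in BHD. In control it was −0.94, −1.68 and −1.78. Control replicate 1 was above both other control arrays in 23 of the 24 probes measured there. BHD replicate 3, alone on slide 3, had the highest ratio of the 3 BHD arrays in 17 of the 25. In Sup, 16 of the 25 were also called lower in BHD, and in IP 1 was called higher and 1 lower, so most of them were also called for a lower supernatant signal. Within slide 2, which holds model replicates 2 and 3 and BHD replicates 1 and 2, 43 members were called, 28 higher and 15 lower, 2.15% where 8.53% of all probes were called. Of the 28 calls of the whole comparison, 17 were among them, 12 were among those made with slide as a block, 13 among those without BHD replicate 3 and 13 among those without model replicate 3.

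The 3 members with a lower ratio in BHD were very bright. ASRN6SM110007727011 had 1.93, 1.99 and 2.07 in model and 1.10, 1.11 and 1.01 in BHD, a difference of −0.92 ± 0.35 (SE, limma adjusted p = 0.433). Its Sup signal was 14.46, 14.50 and 14.64 in model and 15.12, 15.13 and 15.12 in BHD, which was the only Sup call in this direction. In control the ratio was 0.63, 2.01 and 2.27, with replicate 1 below every BHD array. The ratio call was lost without model replicate 2 (−0.92) or 3 (−0.88), without BHD replicate 1 (−0.93), 2 (−0.94) or 3 (−0.89) and with slide as a block (−0.92). The difference in the ratio was −0.11 without normalization within arrays, −0.62 with median centring, −0.67 with the processed signals and −0.65 in the deposited ones, and was called in none of these. The Sup call was lost in 9 of 22 other settings. Among them were leaving out model replicate 1 (0.56) or 2 (0.57), slide as a block (0.56) and median centring. ASRN6SM110006703711, the brightest member of the class with IP signals from 16.38 to 16.93, had 1.67, 1.61 and 1.81 in model, 1.11, 1.15 and 0.87 in BHD and 0.72, 1.55 and 1.78 in control, a difference of −0.65 ± 0.24 (SE, limma adjusted p = 0.431). That call was lost without model replicate 3 (−0.60) or BHD replicate 3 (−0.57) and with slide as a block (−0.58). The difference was −0.31 with median centring, −0.21 with the processed signals, −0.19 in the deposited ones and 0.21 without normalization within arrays. No spot of the class was saturated on any array. Among all other probes with a brightness above 12, 157 were called lower and 8 higher of 1300. The second brightest member, ASRN6SM110000603711, read from 1.20 to 1.32 in model and 0.72, 0.79 and 0.92 in BHD and missed the thresholds (−0.46 ± 0.23, SE, limma adjusted p = 0.494).

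**Figure D5:**
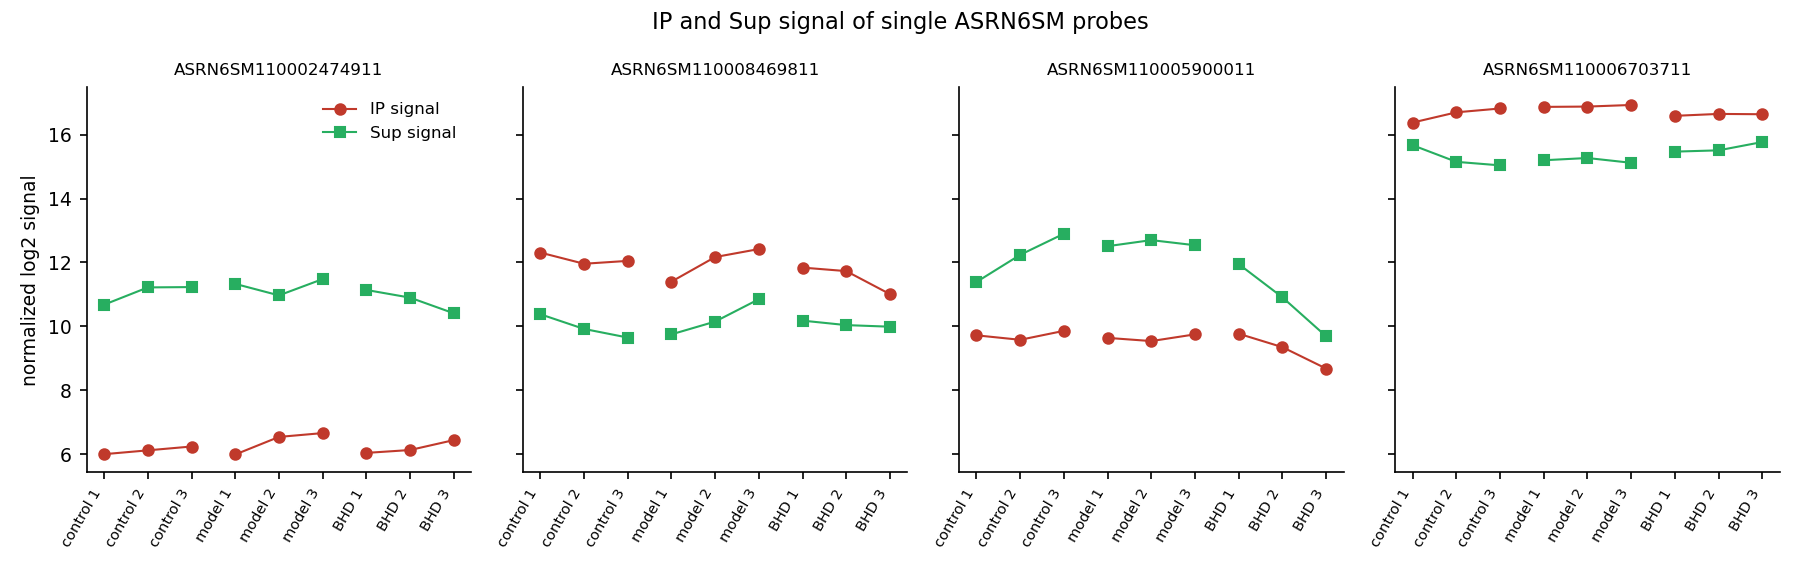
Normalized log2 IP (red circles) and Sup (green squares) signals (y axis) of 4 ASRN6SM probes on the 9 arrays (x axis), with lines joining the arrays of a group. From left to right are the member with the lowest and the one with the highest baseline ratio, the one with the largest change between BHD and model, and the brightest. In ASRN6SM110005900011 the Sup signal is 12.51 to 12.70 in model and 9.69 to 11.95 in BHD, while IP moves less.

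Most of the called signals were lower in BHD, in IP as in Sup. For IP, 49 of 2016 members were called between BHD and model, 2.43% where 5.17% of all probes were called, 4 higher and 45 lower (all probes 1.5% and 3.67%). For Sup 57 were called, 2.83% where 2.93% of all probes were called, 1 higher and 56 lower, against 0.251% and 2.68% of all probes. The lowest adjusted p of a member was 0.136 for IP and 0.531 for Sup by limma, so none passed 0.05. Without the fold threshold the balance in IP was another one. At an unadjusted p under 0.05 were 293 members (14.5%, all probes 16.5%), 155 higher and 138 lower. Without overlap were 446 (22.3%, all probes 25.3%, with 10.1% higher and 15.3% lower), 271 higher and 175 lower. In Sup, 130 members (6.45%, all probes 7.94%) had an unadjusted p under 0.05, 21 higher and 109 lower. Without overlap in Sup were 224 (11.2%, all probes 14.7%, with 5.53% higher and 9.15% lower), 65 higher and 159 lower. Of the 45 and 56 lower members, 25 were in both lists, which is 55.6% of the first and 44.6% of the second, and only 1 of those 25 was also called for the ratio. Over all probes the shared ones were 40.1% of those lower in IP and 54.9% of those lower in Sup, and both channels come from the same arrays. Altogether 91 members were called in at least 1 of the 3 measures, 4.51% where 7.87% of all probes were.

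ASRN6SM110008001411 had the largest fall in both channels. Its Sup signal was 12.43, 12.15 and 12.17 in model and 11.53, 10.34 and 9.53 in BHD, a difference of −1.78 ± 0.43 (SE, limma adjusted p = 0.596). Its IP signal was 11.10, 11.08 and 10.93 against 10.68, 9.42 and 9.43, a difference of −1.19 ± 0.31 (SE, limma adjusted p = 0.251). Its ratio was called higher too, by 0.59 ± 0.22 (SE, limma adjusted p = 0.431), and control read 11.82, 12.28 and 12.47 in Sup. Next were ASRN6SM110002039311 in Sup, with 11.34, 12.01 and 11.86 in model and 11.05, 10.29 and 8.57 in BHD, and ASRN6SM110001923411 in IP, with 12.07, 12.11 and 12.13 in model and 11.76, 11.46 and 10.15 in BHD. The IP call of the latter was lost without BHD replicate 3 (−0.49) and also, with a change of −0.97 or lower, without any 1 of the model replicates. With slide as a block both IP calls were lost (−0.95 and −0.51), while both Sup calls were kept (−1.23 and −1.26).

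A higher IP signal in BHD was called in 4 members. ASRN6SM110007515711 had 7.00, 6.73 and 6.77 in model and 7.55, 7.45 and 7.50 in BHD, a difference of 0.67 ± 0.08 (SE, limma adjusted p = 0.136), with 7.10, 6.99 and 7.05 in control. This was the lowest adjusted p of any member in any comparison. Its ratio did not meet the thresholds (0.37 ± 0.20), and its Sup signal changed by 0.30 ± 0.17. ASRN6SM110005949011 had 8.74, 8.21 and 8.57 in model and 9.25, 9.10 and 9.04 in BHD in IP, a difference of 0.62 ± 0.19 (SE, limma adjusted p = 0.251), and its ratio was called too, at 0.79 ± 0.24. Its control arrays, 9.11, 8.60 and 8.51, overlapped both groups, and the IP call was lost without model replicate 2 (0.47) or BHD replicate 1 (0.56), with median centring (0.55) and in the deposited signals (0.49).

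BHD replicate 3 had the lowest IP signal of the 3 BHD arrays in 41 of the 45 members called lower in IP, and the lowest Sup signal in 47 of the 56 called lower in Sup. Without it 12 members were called for IP, 3 higher and 9 lower, 0.596% where 2.77% of all probes were called. For Sup there were 31, 1 higher and 30 lower, 1.54% where 1.42% of all probes were called. Leaving out model replicate 2 or model replicate 3 left 20 IP calls each (all probes 2.61% and 3.17%), and leaving out BHD replicate 1 gave 100 Sup calls (4.97%, all probes 5.67%). For the ratio, leaving out model replicate 2 gave 60 calls (2.99%, all probes 1.44%) and model replicate 3 gave 17 (0.845%, all probes 1.61%). Within slide 2, without that array by construction, 37 members were called for IP (1.85%, all probes 6.69%) and 38 for Sup (1.9%, all probes 1.71%). In the deposited log2 signals 288 of 1942 members were called for the ratio, 257 higher and 31 lower in BHD, or 14.8% where 8.72% of all probes were called.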

How the data were processed

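RNA of 9 rat cortices was measured on 2-colour arrays, IP in Cy5 and Sup in Cy3. The deposited scanner files came from Agilent Feature Extraction 11.0.1.1. Their median spot and background intensity is raw, whereas a second, processed intensity had background and dye removed by that software. They also deposited a table of log2 signals that holds 1942 of the 2505 members. Subtracting 1 constant per column from log2 processed intensity gives this table. Its columns were mapped by array, with 0 sample columns unused and 0 samples left out.

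Medians served as spot signals because means are not in these files. They were corrected by normexp (offset 50). Each array was normalized by loess with control, spike-in, custom and outlier spots at weight 0, spots marked as outliers were set missing, and IP and Sup were set on a common scale by Aquantile. A probe was tested when 3 or more of the arrays fitted had it well above background in IP or Sup, and each group had 2 or more values. By this, 1917 members were tested between model and control and 2016 between BHD and model. A member that passes through 1 group alone is favoured to differ, so counts are read against all probes. limma 3.58.1 in R 4.3.3 was fitted over all classes, with 6 arrays for model against control and all 9 for BHD against model. A call required both a 1.5-fold change and a p under 0.05 before adjustment. The number of arrays limits the precision, and the smallest exact permutation p for 3 against 3 rats is 0.1. No source says whether the rats of a group were handled together.

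Probes were named by 3 rules: up to 2 per direction and comparison with the largest change among called members without overlap and well above background on all arrays compared, the 2 highest and 2 lowest control ratios, and the 2 brightest. The members and lists were chosen with earlier results of these data known. Same-numbered control and model arrays deviated together from their groups (r over probes 0.436, 0.139 and 0.32), so the numbers were allowed as pairs there, though no source says what a number shares. Differently numbered control and model arrays gave r from −0.466 to 0.372. The highest of these, for control replicate 2 and model replicate 3, exceeded the 0.139 and 0.32 of same-numbered arrays. For model and BHD the values were 0.602, 0.0448 and 0.266, and the numbers were not taken as pairs. Differently numbered model and BHD arrays gave r from −0.473 to 0.36. A replicate block was still run for both comparisons, only as an alternative to the main fit. Alternatives were other background corrections, normalizations, filters and blocks, and each array left out. The fit was tested on simulated data with known changes. Figures were drawn with matplotlib 3.10.9 in Python 3.11.15.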

Additional observations from a re-analysis of the deposited data

How the results depend on the processing

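The counts of ASRN6SM probes called under other settings are given in the order log2(IP/Sup), IP, Sup. For model against control the scanner software's processed signals, which replace both normexp and loess, gave 136, 44 and 79, no normalization within arrays 12, 29 and 11, the deposited log2 signals 401, 48 and 278, slide as a block 2, 12 and 3, and slide 1 alone (chosen after seeing the data) 3, 26 and 17. As shares of the class, the processed signals gave 7.09%, 2.3% and 4.12% (all probes 5.08%, 4.42% and 5.54%). No normalization gave 0.626%, 1.51% and 0.574% (all probes 3.32%, 6.3% and 3.88%). The deposited signals gave 21.5%, 2.57% and 14.9% (all probes 14.5%, 4.84% and 11.5%). Slide as a block gave 0.104%, 0.626% and 0.156% (all probes 0.243%, 0.913% and 0.654%). Of these, only the processed and deposited signals gave the class the larger share for log2(IP/Sup). Median centring gave 0 for log2(IP/Sup) and 0 for Sup (all probes 0.19% and 0.847%). The filter on both channels gave 0 for log2(IP/Sup) (all probes 0.984%). A replicate block gave 4 for log2(IP/Sup) and 2 for Sup (all probes 2.55% and 1.56%). With all 9 arrays in the fit there were 2 for Sup (all probes 1.02%), and an adjusted p gave 0 for log2(IP/Sup) and 0 for Sup (all probes 0% and 0%). For BHD against model the processed signals gave 325, 254 and 200 (16.1%, 12.6% and 9.92%, all probes 10.4%, 13.3% and 8.42%). No normalization gave 135, 81 and 143 (6.7%, 4.02% and 7.09%, all probes 6.48%, 8.55% and 6.98%). The deposited log2 signals gave 288, 172 and 262 (14.8%, 8.86% and 13.5%, all probes 8.72%, 12.3% and 9.76%). An adjusted p gave 0, 0 and 0 (all probes 0%, 0.00302% and 0.00604%). Median centring gave 12 for log2(IP/Sup) and 31 for Sup (0.595% and 1.54%, all probes 1.29% and 2.08%). Slide as a block gave 32 for Sup (1.59%, all probes 1.42%), and slide 2 alone (chosen after seeing the data) 43 for log2(IP/Sup) (2.15%, all probes 8.53%). The replicate block changed none of the BHD counts of the main processing by over 1.5 times (32, 50 and 56). These were 1.59%, 2.48% and 2.78%, against 4.01%, 5.68% and 3.02% of all probes. Leaving out each array in turn gave 0 to 32, 0 to 7 and 1 to 14 calls for model against control and 17 to 60, 12 to 67 and 31 to 100 for BHD against model. Over all probes the shares called then ran from 0.177% to 5.52%, 0.934% to 3.53% and 0.783% to 2.66% for model against control. For BHD against model they ran from 1.44% to 6.52%, 2.61% to 7.4% and 1.42% to 5.67%. The control median of the class was −0.28 with processed signals, 0.19 without normalization, −0.01 with median centring, −0.06 without a filter and −0.18 with the filter on both channels. Its difference from all other probes, an alternative added after seeing the data, kept its direction: −0.36 with processed signals, −0.34 with the deposited table, −0.17 without normalization, −0.17 with median centring, −0.06 without a filter and −0.16 with the filter on both channels. The share of members more than 1 below the others was 29.5% with processed signals and 29.7% with the deposited table, and the share more than 1 above was 4.0% with each. By the flag for positive and significant signal, 86.5% of the members were detected in IP and 81.7% in Sup. Without normalization the change of ASRN6SM110000298711 turned to −0.07 and that of ASRN6SM110006703711 to 0.21. Over the named probes, 206 of 276 other settings kept direction and side of the thresholds, 68 lost the call and 2 reversed. The causes were not tested. Over all probes, the calls for log2(IP/Sup) between model and control rose from 0.616% to 2.55% with the replicate block and to 14.5% in the deposited signals. Signal over background limits the ratio of a dim probe, and 356 members were detected on no array.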
